A study of Homo sapiens with 17 samples.

Results

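The transcriptome of cells given 2-DG was compared with that of untreated cells, labelled NC, over 12671 of the 17808 genes in the RNA-seq table. A gene entered the comparison when its level reached 1 RPKM (reads per kilobase of gene model, scaled by the counted reads of the library) in at least 3 of the 6 libraries. Both groups are labelled HepG2, a human liver cancer cell line, with a WT genotype, and each holds 3 libraries that the series design gives as biological replicates. The treated cells received 40 mM 2-DG and their titles give 48 h, while the titles of the untreated cells give 24 h, so treatment and time in culture cannot be told apart. Another group of 3 libraries was given 40 mM Nala, for 48 h per the titles and 24 h per the series design, and is used here only beside the genes that changed most. The series title names BRD9 and histone lactylation, and 8 ChIP-seq and ATAC-seq samples of the 17 in the series are not analysed here.

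2-DG is 2-deoxyglucose, a glucose analogue that is taken up and phosphorylated like glucose but cannot pass through the remaining steps of glycolysis. Its phosphate accumulates and slows hexokinase and the isomerase that follows, so that energy supply falls. Because it also resembles mannose, it can be built into the sugar chains that are attached to proteins in the endoplasmic reticulum, and misfolded proteins there activate sensors that raise chaperones and the transcription factors ATF4 and XBP1. Cells short of energy or nutrients commonly stop dividing, and the p53 pathway is among the routes that hold them.

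The 6 libraries held 6199778 to 6548811 counted reads, so that 1 read in a 1 kb gene was worth 0.153 to 0.161 RPKM. The first principal component carried 70.7% of the variance and separated the groups. NC replicate 1 stood apart from the other untreated libraries on the second component (11.1%), with 97 genes at least 2-fold above both of them and 65 at least 2-fold below both. 2-DG replicate 1 stood apart on the third component (9.9%). The highest level was 229.6 RPKM and the densest gene model averaged 1.21 reads per base. Such a range is narrow for RNA-seq, and its effect on the fold changes of abundant genes was not tested.

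The label was set beside markers of liver and other cell types. Of 22 hepatocyte markers 9 were in the table, and 4 of these stayed under 1 RPKM in all 6 libraries. They included the lipoprotein core APOB (0 to 0.011 RPKM), transferrin TF and the factor FOXA3. The other 5 were VTN at 9.94 to 69.2 RPKM, CEBPA at 14 to 33.9 RPKM, FOXA1 at 3.81 to 6.97 RPKM, HNF4A at 1.41 to 3.3 RPKM and RBP4 at 1.17 to 4.27 RPKM. Of the bile duct markers KRT7 (110.0 to 140.3 RPKM) and MUC1 (41.6 to 78.2 RPKM) were high, EPCAM lay at 1.42 to 3.76 RPKM, and KRT19, SOX9, SPP1 and CFTR stayed under 1 RPKM. Thus only 5 of the 22 hepatocyte markers reached 1 RPKM, and most of the list was not in the table. Each of the 17808 genes in the table held reads, so a marker without reads may be absent for that reason. This was not tested, and the cells are called here by their label only. The summed level of the 9 hepatocyte markers spanned 60.9 to 114.2 RPKM over the NC libraries and 37.6 to 43.95 RPKM over the 2-DG libraries, and that of the intestinal list went from 10.7 to 80.9 RPKM down to 1.82 to 3.82 RPKM, 4 of its 5 measured genes being under 1 RPKM throughout and ALPI making up nearly the whole sum. The sum of the immune list went from 25.1 to 28.5 RPKM down to 9.44 to 15.7 RPKM, with the leukocyte marker PTPRC at 0 to 0.0593 RPKM. The neural sum lay at 148.9 to 151.4 RPKM and 127 to 156.7 RPKM, most of it from L1CAM at 117 to 143 RPKM. That of the fibroblast list spanned 44.8 to 85.4 RPKM over the NC libraries and 33.3 to 50.9 RPKM over the 2-DG libraries. The kidney sum went without overlap from 0.969 to 1.52 RPKM over the NC libraries to 2.27 to 3.76 RPKM over the 2-DG libraries, 3 of its 4 measured genes being under 1 RPKM throughout. The bile duct sum lay at 189.9 to 204.3 RPKM and 160.2 to 185.4 RPKM. Sums of the lung and endothelial lists overlapped between the groups, and each squamous marker measured stayed under 1 RPKM. The part of these cell types in the results was not tested.

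In the fit across all genes (limma, with a gene called at a Benjamini-Hochberg adjusted p under 0.05), 5009 genes differed, 39.5% of those tested. Of these 2628 (20.7%) were higher with 2-DG and 2381 (18.8%) were lower, so that calls were split nearly evenly. The largest changes leaned downwards, with 654 genes (5.16%) at least 2-fold lower and 416 (3.28%) at least 2-fold higher, and 110 against 50 beyond 4-fold. Fold changes are given as log2 differences of RPKM + 1 with their standard errors, a scale on which the change of a low gene is understated. The median change over all genes tested was 0.03 and the median size of a change among called genes was 0.62. Values of the groups did not overlap in 6667 genes (52.6%), of which 4952 were called. With 1 library left out, calls over all genes changed as well, and list counts below should be read beside these. Genes higher numbered 3072, 1821 and 1689 without 2-DG replicates 1, 2 and 3, rather than 2628. They numbered 2463, 2045 and 1823 without NC replicates 1, 2 and 3. Genes lower, rather than 2381, numbered 2436, 1811 and 1750 without the 2-DG replicates in turn and 2167, 1976 and 1641 without the NC replicates.

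**Figure D1:**
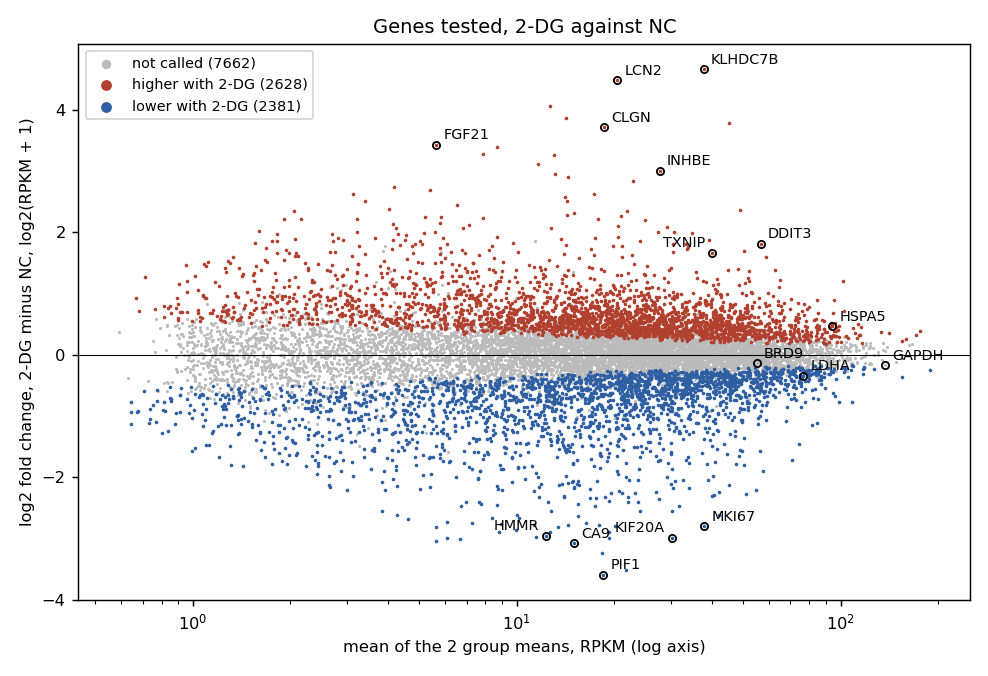
Each point is a gene tested, by its mean level (horizontal log axis, RPKM) and its log2 change with 2-DG (vertical axis), coloured where called by limma. Of the called genes 2628 lie above and 2381 below the zero line, and changes beyond 4-fold occur at all but the highest levels.

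Calls were spread over levels and chromosomes. In the fifth of genes with the lowest levels 17.7% were higher and 17.6% lower, and in the fifth with the highest levels the shares were 21.6% and 19.02%. The median standard error fell from 0.19 to 0.09 between these classes. Of the 467 long noncoding RNAs tested 23.1% were higher and 10.5% lower, against 21.2% and 19.6% of the 11590 protein-coding genes. Chromosome 19 had the highest share of genes called higher, 27.1% of 935. The filter on low values also bears on these shares, since 130 genes reached 1 RPKM in all 2-DG libraries and in no NC library, and 152 the reverse, of which 111 and 136 were called. Such genes were tested only through the group where they were high, and no p-value is given for those named below. LCN2, CLDN1, TRIM22, ASNS and TUBB4A missed 1 RPKM in part of the group where they were low, and none is given for them either. FAAH and KCNMB4 passed that filter narrowly, the value that had to reach 1 RPKM being 1.0009 and 1.0018 RPKM, and LINC01465 and TMEM154 missed it with 0.999 RPKM each.

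Genes ranked here were called, averaged at least 10 RPKM in their higher group and did not overlap between groups. MicroRNA, LINC, LOC, clone and pseudogene symbols were left out. The 12 largest rises among the genes ranked were in KLHDC7B, LCN2, LAMP3, CLDN1, CLGN, FGF21, CALML6, SPX, TRIM22, NECTIN4, INHBE and COL6A2. MIR3189, a microRNA gene left out for this reason, had a log2 change of 3.78 ± 0.38. KLHDC7B, which encodes a kelch-domain protein (chromosome 22, 50545899 to 50551023), lay at 1.35, 2.2 and 2.37 RPKM in NC and 65.6, 78.9 and 76 RPKM with 2-DG, a log2 change of 4.66 ± 0.16 (limma adjusted p = 6.94e-06). LCN2 (chromosome 9, 128149453 to 128153453), the secreted siderophore binder lipocalin-2, lay at 1.42, 0.507 and 0.669 RPKM in NC and 39.8, 35.7 and 44.5 RPKM with 2-DG (log2 change 4.48 ± 0.19). Separation of the groups in these genes follows from how they were chosen. CLDN1, a claudin of tight junctions, was at 0.539, 1.33 and 1.03 RPKM in NC and 28.2, 31.8 and 22.4 RPKM with 2-DG (log2 change 3.86 ± 0.20), and it overlaps CLDN16. The adhesion molecule NECTIN4 was at 2.39, 1.13 and 1.29 RPKM in NC and 16.3, 27.6 and 21 RPKM with 2-DG (log2 change 3.12 ± 0.24, adjusted p = 6.02e-05), and it overlaps its antisense gene. Whether reads were counted by strand is not known here, so reads of overlapping genes cannot be told apart.

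Hormone-like and chaperone genes were among the same 12. INHBE, which encodes a subunit of the secreted hormone activin E (chromosome 12, 57455307 to 57458025), lay at 3.37, 5.95 and 7.34 RPKM in NC and 46.1, 50.6 and 52.6 RPKM with 2-DG (log2 change 3.0 ± 0.22, adjusted p = 4.88e-05). SPX, the precursor of the peptide hormone spexin, held 2 reads in each untreated library and 30, 93 and 48 reads with 2-DG. CLGN (chromosome 4, 140388453 to 140427648), a lectin chaperone of the endoplasmic reticulum best known from the testis, was at 2.47, 1.14 and 1.83 RPKM in NC and 37.5, 37.2 and 31.3 RPKM with 2-DG (log2 change 3.72 ± 0.19, adjusted p = 1.15e-05). TRIM22, an interferon-inducible ubiquitin ligase, lay at 2.21, 0.939 and 1.88 RPKM in NC and 24.8, 28.4 and 19.97 RPKM with 2-DG (log2 change 3.27 ± 0.21). SPX held few reads and varied widely among treated libraries. COL6A2, a chain of collagen VI, rose to 30.4, 24.3 and 17.4 RPKM from 2.25, 1.99 and 2.2 RPKM, and CALML6, a calmodulin-like protein, rose to 22.1, 13.3 and 14.7 RPKM from 0.845, 0.693 and 0.439 RPKM.

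By the same rule the 12 largest falls were in PIF1, ALPI, PIMREG, CA9, TRAPPC3L, LMO1, DLGAP5, CGA, KIF20A, KIF14, HMMR and ASB9. PIF1, a DNA helicase (chromosome 15, 64815632 to 64827062), lay at 30.1, 35.8 and 39.1 RPKM in NC and 2.41, 1.48 and 2.08 RPKM with 2-DG (log2 change -3.59 ± 0.16, adjusted p = 6.94e-06). KIF14, a kinesin of cytokinesis, was at 19.1, 23.3 and 21.2 RPKM in NC and 1.6, 1.83 and 2.05 RPKM with 2-DG (log2 change -2.97 ± 0.13, adjusted p = 7.03e-06). ASB9, a substrate adaptor of ubiquitin ligases, was at 23.2, 20.8 and 25.1 RPKM in NC and 1.82, 1.96 and 2.95 RPKM with 2-DG. Here too the separation of the groups follows from the choice of genes. LMO1, a LIM-only transcriptional cofactor, fell to 0.341, 0.646 and 1.09 RPKM from 14.2, 9.03 and 14.6 RPKM.

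Of the same 12 genes 4 varied widely among the untreated libraries. ALPI, an intestinal alkaline phosphatase, lay at 79.9, 10.4 and 34.7 RPKM in NC and 2.89, 1.37 and 1.39 RPKM with 2-DG. CA9, a carbonic anhydrase induced by hypoxia, lay at 58.2, 16 and 10.5 RPKM in NC and 1.87, 0.984 and 2.4 RPKM with 2-DG. CGA, the common subunit of the glycoprotein hormones, was at 18, 3.62 and 13.7 RPKM in NC and 0.382, 0.181 and 0.551 RPKM with 2-DG. TRAPPC3L was at 18.9, 2.76 and 11.5 RPKM in NC and 0.291, 0.276 and 0 RPKM with 2-DG. NC replicate 1 was highest and NC replicate 2 lowest in ALPI, CGA and TRAPPC3L, while in CA9 NC replicate 1 stood alone. Their falls depended on these libraries in size but not in direction. That of ALPI was -3.51, and -2.84 without NC replicate 1 or -4.26 without NC replicate 2. That of CA9 was -3.07 and -2.38 without NC replicate 1. That of TRAPPC3L was -3.05 and -3.74 without NC replicate 2, and that of CGA was -2.6 without NC replicate 1 and -3.62 without NC replicate 2.

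**Figure D2:**
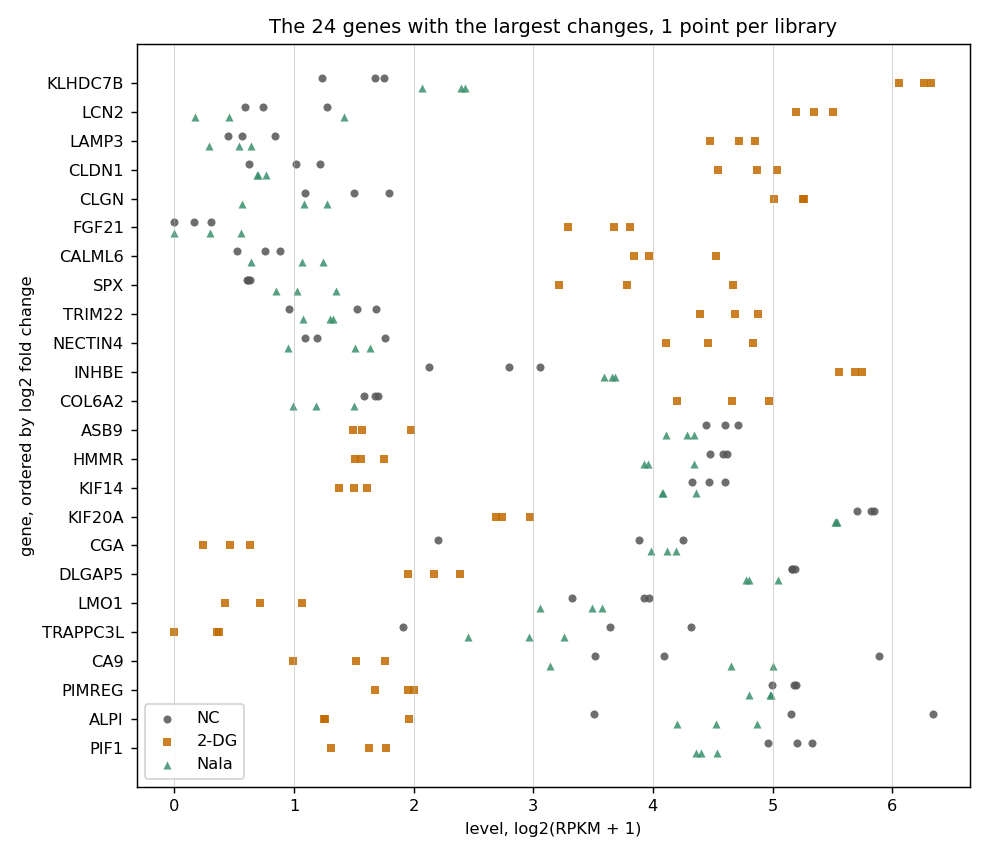
Levels of the 24 genes ranked in the text by largest change, as log2(RPKM + 1) on the horizontal axis, with 1 point per library of NC, 2-DG and Nala. The 2-DG libraries lie apart from the others in each gene, which the choice of genes required against NC. ALPI, CA9, CGA and TRAPPC3L show the widest spread among NC libraries.

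In cells given Nala all 24 genes lay nearer to their NC levels than to their 2-DG levels, as the plot by library shows. The 24 were chosen for their values in the 2-DG libraries, so this is a description with no test. In a fit of the 3 groups (limma) 4609 genes (36.4%) differed between 2-DG and Nala and 7 between Nala and NC. Nala replicates 2 and 3 differed by less than the sampling noise (chi-square per degree of freedom 0.923 over genes) and were counted as 1 sample. If the titles give its time correctly, Nala shares the 48 h of 2-DG.

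A few genes were nearly silent in 1 group. Genes under 1 RPKM in each library of a group and at or above 5 RPKM in each library of the other numbered 5 in the upward direction (SPX, CALML6, KCP, LAMP3 and FGF21) and 3 in the downward direction (CACNA1G, CREB3L3 and DMBX1). LAMP3, a lysosomal membrane protein, held 17, 8 and 10 reads in NC and 526, 608 and 459 reads with 2-DG. CREB3L3, a transcription factor that in the mouse liver drives Fgf21, held 212, 173 and 151 reads in NC and 6, 12 and 15 reads with 2-DG. CACNA1G, a T-type calcium channel, held 539, 288 and 329 reads in NC and 20, 16 and 24 reads with 2-DG. That treated and untreated counts were far apart in every library follows from the limits used to choose these genes. KCP, a secreted modulator of BMP signalling, rose to 5.46, 8.19 and 8.6 RPKM from 0.886, 0.84 and 0.92 RPKM.

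Genes of cell division were lower in every treated library. All 42 mitosis genes tested fell, each of them at least 2-fold. Over all genes tested 18.8% fell and 5.16% fell at least 2-fold. The median log2 change of the mitosis genes was -2.18 against 0.03 over all genes tested. As for the other lists, members were chosen with earlier results of these data known. Together the mitosis genes took up 0.698% of counted reads in NC and 0.159% with 2-DG. In bulk RNA a smaller number of dividing cells and less of these RNAs per cell cannot be told apart. All 42 fell whichever library was left out.

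Promoters of 3 genes that fell strongly, PIF1, HMMR and MKI67, are shown because they carry letters known from cell cycle genes. They are the 100 bases before the start used in the RefSeq promoter table (GRCh38.p14), which for PIF1 lies inside the gene span given above and for HMMR and MKI67 at its end, and capitals mark TTTGAA, the cell cycle homology region, and CCAAT, the CCAAT box, on either strand, with overlapping matches joined.
PIF1 (chr15:64825648-64825747, minus strand): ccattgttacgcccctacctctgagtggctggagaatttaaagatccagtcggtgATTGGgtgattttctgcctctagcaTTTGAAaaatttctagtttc
HMMR (chr5:163460532-163460631, plus strand): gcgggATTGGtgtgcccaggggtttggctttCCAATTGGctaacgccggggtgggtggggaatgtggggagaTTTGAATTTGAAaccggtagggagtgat
MKI67 (chr10:128126424-128126523, minus strand): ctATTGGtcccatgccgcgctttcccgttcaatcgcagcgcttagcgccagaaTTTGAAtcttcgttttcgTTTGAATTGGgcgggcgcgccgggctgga
TTTGAA occurred in 22 of the 29 mitosis genes with a single promoter in the tables, in 48 of the 100 largest falls, in 7 of the 100 largest rises and in 9.14% of all 7066 such genes, over a window from 250 bases before to 50 after the start and both strands. CCAAT occurred in 22 of 29, 64 of 100, 33 of 100 and 37.8%. A match is a description of letters, not of a bound site.

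The 3 genes were low together with the mitosis list. MKI67, the Ki-67 protein that coats mitotic chromosomes, was at 65.5, 68 and 67.6 RPKM in NC and 11.5, 6.25 and 9.22 RPKM with 2-DG (log2 change -2.8 ± 0.18, adjusted p = 2.91e-05). HMMR, a spindle-associated protein, was at 23, 21.3 and 23.6 RPKM in NC and 1.95, 1.85 and 2.37 RPKM with 2-DG (log2 change -2.95 ± 0.13, adjusted p = 6.94e-06). Both were about equal among untreated libraries and low in all treated ones, and 2-DG replicate 2 had the lowest MKI67. CENPF, a kinetochore protein (chromosome 1, 214603195 to 214664571), lay at 54.2, 55.7 and 52.6 RPKM in NC and 12, 6.7 and 8.93 RPKM with 2-DG (log2 change -2.47 ± 0.17, adjusted p = 4.24e-05). KIF18B, a kinesin that shortens astral microtubules, lay at 47.4, 54.3 and 55.1 RPKM in NC and 10.00, 6.38 and 8.07 RPKM with 2-DG (log2 change -2.56 ± 0.15, adjusted p = 2.16e-05). PIMREG, DLGAP5 and KIF20A led the list with log2 changes of -3.24, -3.0 and -2.99. PIMREG overlaps PITPNM3, KIF20A overlaps CDC23 and HMMR overlaps its antisense gene.

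DNA replication genes fell as a group too. All 43 tested were called lower, 20 of them at least 2-fold, against 18.8% and 5.16% over all genes tested. Their median log2 change was -0.94, and their share of counted reads went from 0.585% to 0.316%. RRM2, the small subunit of ribonucleotide reductase, was at 49.9, 51.6 and 49.7 RPKM in NC and 10.1, 8.86 and 12.6 RPKM with 2-DG (log2 change -2.17 ± 0.12, adjusted p = 1.90e-05). TK1, the thymidine kinase of dividing cells, was at 76.9, 77.2 and 68.7 RPKM in NC and 20.2, 24.2 and 29.7 RPKM with 2-DG (log2 change -1.57 ± 0.13, adjusted p = 9.74e-05). MCM10, a replication initiation factor, was at 21.8, 28.4 and 26.7 RPKM in NC and 5.49, 4.09 and 5.88 RPKM with 2-DG (log2 change -2.12 ± 0.16, adjusted p = 5.61e-05). Treated libraries lay far under the untreated ones in each, with no overlap. With single libraries left out 41 to 43 of the 43 stayed called.

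Letters in the promoters of this list were counted in the same way. TTTGAA was found in 1 of 30 replication genes, while TTTNGCGC, an E2F site, was found in 15 of 30, against 3.11% of all 7066 genes, 4 of the 100 largest falls and 0 of the 100 largest rises. The promoters of E2F2 and POLE2 are shown as examples, with capitals for that motif on either strand.
E2F2 (chr1:23531234-23531333, minus strand): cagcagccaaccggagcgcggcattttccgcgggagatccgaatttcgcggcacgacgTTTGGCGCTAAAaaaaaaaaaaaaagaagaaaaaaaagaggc
POLE2 (chr14:49688215-49688314, minus strand): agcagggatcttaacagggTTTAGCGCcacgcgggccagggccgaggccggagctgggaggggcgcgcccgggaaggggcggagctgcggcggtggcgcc
E2F2, an activating E2F factor, lay at 26.4, 20.3 and 22.1 RPKM in NC and 5.37, 3.03 and 5.5 RPKM with 2-DG (log2 change -2.11 ± 0.20, adjusted p = 1.71e-04). POLE2, a subunit of DNA polymerase epsilon, lay at 21.2, 18.6 and 18.7 RPKM in NC and 7.97, 6.57 and 7.0 RPKM with 2-DG (log2 change -1.33 ± 0.12, adjusted p = 1.23e-04). Both were lower in each treated library than in any untreated one.

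**Figure D3:**
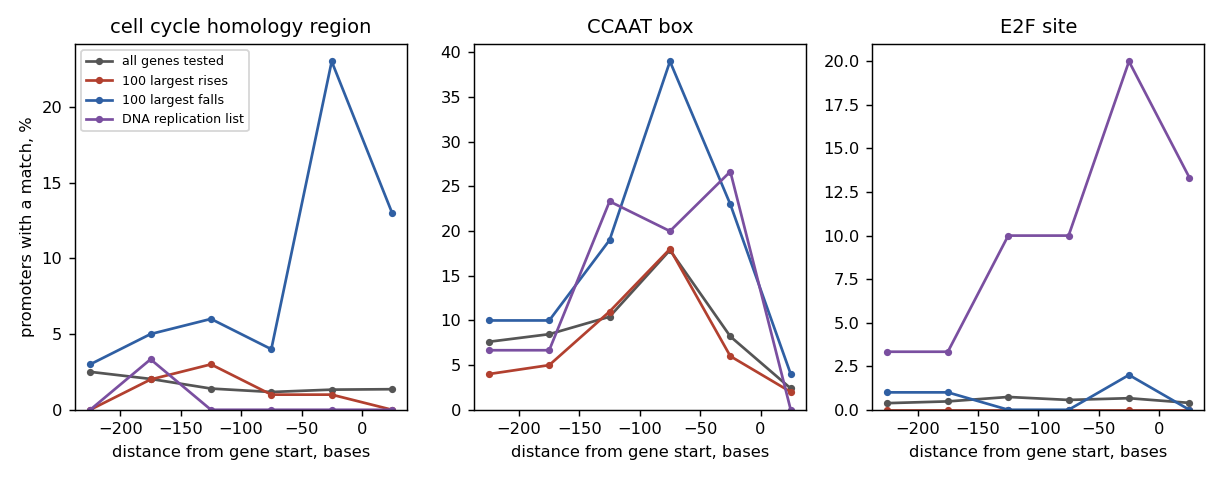
Share of promoters with a match (vertical axis, %) in windows of 50 bases by distance from the gene start, for 3 motifs and 4 gene sets. TTTGAA peaked within 50 bases before the start in the 100 largest falls (23% against 1.33% of all genes), CCAAT peaked from 100 to 50 bases before it (39% against 17.9%), and the E2F site was most frequent in the DNA replication list.

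Histone variants, histone chaperones and HMG proteins leaned downwards. Of 50 histone variants, histone chaperones, cohesins and HMG proteins 30 fell (60.0%, against 18.8% over all genes tested) and 4 rose, with a median of -0.31. Those higher numbered 2 without 2-DG replicate 2, 2-DG replicate 3, NC replicate 2 or NC replicate 3. HMGN5, a nucleosome-binding protein, lay at 17.9, 14.2 and 13.5 RPKM in NC and 1.59, 1.94 and 1.17 RPKM with 2-DG (log2 change -2.66 ± 0.17, adjusted p = 2.91e-05). H2AX, the histone variant that marks DNA breaks, lay at 32, 42.6 and 39.1 RPKM in NC and 12.3, 17.7 and 17.7 RPKM with 2-DG (log2 change -1.21 ± 0.16, adjusted p = 8.94e-04). UHRF1 recruits the maintenance DNA methyltransferase and led the falls in the list of chromatin-modifying enzymes described next. It lay at 23.8, 32.2 and 27.2 RPKM in NC and 9.41, 6.48 and 9.74 RPKM with 2-DG (log2 change -1.6 ± 0.17, adjusted p = 2.99e-04). The groups were well separated in these 3 genes. The maintenance methyltransferase DNMT1 fell as well, from 66.1, 76.2 and 68.6 RPKM to 50.2, 41.7 and 47 RPKM.

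Chromatin-modifying enzymes as a list showed no lean, with 22 of 91 higher and 20 lower (24.2% and 22%), shares close to the 20.7% and 18.8% over all genes tested. The count higher was 14 without 2-DG replicate 2, 12 without 2-DG replicate 3 and 13 without NC replicate 3. Over all genes tested it went from 2628 to 1821, 1689 and 1823 in the same fits. Related enzymes went opposite ways. EZH2, the polycomb methyltransferase of dividing cells, was at 50.4, 53.6 and 53.4 RPKM in NC and 34.7, 30.4 and 32.6 RPKM with 2-DG (log2 change -0.67 ± 0.08, adjusted p = 5.36e-04), while its relative EZH1, the form of resting cells, was at 21.1, 22.3 and 22.7 RPKM in NC and 46, 34.8 and 35.2 RPKM with 2-DG (log2 change 0.77 ± 0.12, adjusted p = 0.00173). The demethylase KDM7A was at 3.01, 2.48 and 2.16 RPKM in NC and 6.75, 8.11 and 6.15 RPKM with 2-DG (log2 change 1.17 ± 0.16, adjusted p = 9.74e-04). EZH1 and KDM7A were higher, and EZH2 lower, in all 3 treated libraries.

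Nuclear envelope and DNA repair genes were more often lower than higher. Of 63 genes of the nuclear pore, lamina and nuclear transport 23 fell (36.5%, against 18.8% over all genes tested) and 5 rose, with a median of -0.15, and -0.084 without NC replicate 2. Those higher numbered 3 without 2-DG replicate 2, 2-DG replicate 3 or NC replicate 3. The falls were led by LMNB1, the lamin B1 of the nuclear lamina, at 52.8, 61.1 and 56.3 RPKM in NC and 18.8, 15 and 20.4 RPKM with 2-DG (log2 change -1.6 ± 0.12, adjusted p = 6.12e-05). Its relative LMNB2 fell to 35.1, 35.1 and 35.6 RPKM from 53.3, 67.8 and 58.8 RPKM. Of 69 genes of damage signalling and repair 24 fell and 9 rose (median -0.15), and the count higher was 14 without 2-DG replicate 1, 4 without 2-DG replicate 2 and 4 without 2-DG replicate 3. The glycosylase NEIL3 led the falls (13.2, 15.2 and 16.4 RPKM in NC, 3.09, 1.66 and 2.84 RPKM with 2-DG). GADD45A, XPC and the bypass polymerase POLH, all known as p53 targets, rose, with log2 changes of 1.39, 0.71 and 0.71. The share called lower, 34.8%, compares with 18.8% over all genes tested.

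**Figure D4:**
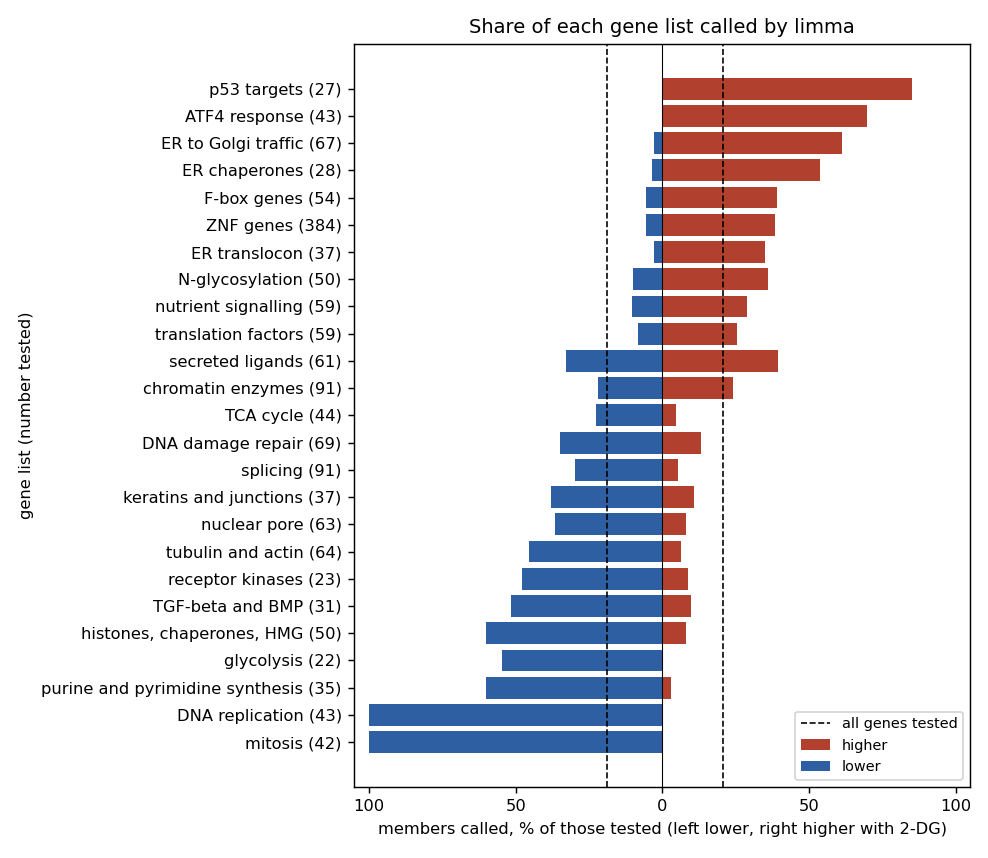
Share of each gene list called lower (bars to the left) and higher (bars to the right) with 2-DG by limma, in % of members tested, with the shares over all genes tested as dashed lines. Mitosis and DNA replication are at 100% lower, and the p53 target list has the highest share called higher, 85.2%.

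Targets of p53, the transcription factor that arrests or kills damaged cells, rose almost throughout. Of 27 tested 23 rose, 12 at least 2-fold, and none fell, with a median log2 change of 0.90 against 0.03 over all genes tested. The share called higher, 85.2%, compares with 20.7% over all genes tested. MDM2, the ligase that degrades p53 (chromosome 12, 68808172 to 68850686), was at 23.4, 23.6 and 22.7 RPKM in NC and 77.8, 82.1 and 73.1 RPKM with 2-DG (log2 change 1.7 ± 0.08, adjusted p = 7.03e-06). The cell cycle inhibitor CDKN1A, also called p21, was at 71.9, 50.1 and 55.7 RPKM in NC and 104, 118 and 109 RPKM with 2-DG (log2 change 0.90 ± 0.13, adjusted p = 0.00106). Levels of MDM2 were nearly identical among untreated libraries, whereas those of CDKN1A differed more.

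Antiproliferative and death-promoting targets were included. BTG2, an antiproliferative cofactor, was at 21, 9.18 and 15.7 RPKM in NC and 42.5, 61.9 and 51.8 RPKM with 2-DG (log2 change 1.76 ± 0.26, adjusted p = 0.00146). BBC3, the death-promoting BH3 protein PUMA, was at 12.8, 9.2 and 9.88 RPKM in NC and 29.4, 37.5 and 37.3 RPKM with 2-DG (log2 change 1.62 ± 0.15, adjusted p = 1.38e-04). RRM2B, the p53-induced subunit of ribonucleotide reductase, was at 15.8, 14.7 and 13.9 RPKM in NC and 30.9, 44 and 39.6 RPKM with 2-DG (log2 change 1.3 ± 0.14, adjusted p = 2.74e-04), opposite in direction to RRM2. The groups did not overlap in any of these. FAS, the death receptor, lay at 3.58, 2.91 and 4.07 RPKM in NC and 7.8, 11.6 and 9.01 RPKM with 2-DG. ACTA2, smooth muscle actin, which overlaps it, lay at 4.23, 1.48 and 2.29 RPKM in NC and 18.3, 34.3 and 25.7 RPKM with 2-DG, so that their reads cannot be told apart.

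Genes of the integrated stress response, in which ATF4 is made when general translation is slowed, rose in most cases. Of 43 tested 30 rose, 12 at least 2-fold, and none fell (median 0.50). The shares, 69.8% higher and 0% lower, compare with 20.7% and 18.8% over all genes tested. ATF4 itself was at 45.7, 55.4 and 47.8 RPKM in NC and 67.7, 65.5 and 62.8 RPKM with 2-DG (log2 change 0.39 ± 0.09, adjusted p = 0.00865). Its change was small, and several of its targets changed by more than 2-fold. ATF3, a stress transcription factor, was at 14.2, 13.3 and 11.6 RPKM in NC and 43.5, 53 and 47.1 RPKM with 2-DG (log2 change 1.8 ± 0.11, adjusted p = 2.76e-05). TRIB3, a pseudokinase that feeds back on ATF4, was at 25, 31.6 and 29.5 RPKM in NC and 66, 80.6 and 80.03 RPKM with 2-DG (log2 change 1.37 ± 0.11, adjusted p = 9.47e-05). NUPR1, a small stress-induced nuclear protein, was at 10.2, 19.3 and 17 RPKM in NC and 68.6, 90.05 and 87.6 RPKM with 2-DG (log2 change 2.37 ± 0.21, adjusted p = 1.28e-04). Each of these was higher in all treated libraries than in any untreated one. With a library left out, 25 to 30 of the 43 were called higher.

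The letters TTGCATCA, the CEBP-ATF element that ATF4 and its partners bind, occurred in 25 of the 7066 promoters (0.354%) and in 4 of 20 on this list, in AARS1, NARS1, FGF21 and CHAC1. Those of FGF21 and CHAC1 are shown, the second from 250 to 151 bases before the gene start, with the element in capitals.
FGF21 (chr19:48755424-48755523, plus strand): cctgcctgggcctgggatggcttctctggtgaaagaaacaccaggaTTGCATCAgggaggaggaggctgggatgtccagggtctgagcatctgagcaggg
CHAC1 (chr15:40953221-40953320, plus strand): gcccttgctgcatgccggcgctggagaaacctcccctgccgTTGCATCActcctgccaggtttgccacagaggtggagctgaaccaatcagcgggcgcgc
The element was found in 2 of the 100 largest rises and in 1 of the 100 largest falls. FGF21, a stress hormone, held 0, 2 and 1 reads in NC and 71, 111 and 99 reads with 2-DG. CHAC1, which degrades glutathione, lay at 1.69, 7.54 and 6.82 RPKM in NC and 29.9, 49.6 and 41.2 RPKM with 2-DG (log2 change 2.84 ± 0.41, adjusted p = 0.00125), with NC replicate 1 the lowest of the untreated libraries. CHAC1 was higher in every treated library, and for FGF21 this was fixed by its choice.

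Further members of the list are given as examples. ASNS, the asparagine synthetase, was at 0.987, 1.1 and 1.3 RPKM in NC and 5.41, 5.13 and 6.52 RPKM with 2-DG (log2 change 1.65 ± 0.16), a low level. GDF15, a stress hormone, was at 62.8, 62.1 and 58.4 RPKM in NC and 154, 138 and 135 RPKM with 2-DG (log2 change 1.2 ± 0.07, adjusted p = 2.20e-05). STC2, a secreted glycoprotein induced by stress in the endoplasmic reticulum, was at 26.4, 28 and 23.7 RPKM in NC and 56.7, 56.2 and 54.8 RPKM with 2-DG (log2 change 1.08 ± 0.09, adjusted p = 7.64e-05). SLC7A11, the cystine importer, lay at 23, 40.03 and 41.2 RPKM in NC and 51.7, 46.2 and 44.6 RPKM with 2-DG and did not pass the test (limma adjusted p = 0.0904), NC replicate 1 being the low library. DDIT3, the stress factor CHOP, rose (log2 change 1.81 ± 0.15, limma adjusted p = 9.91e-05) and overlaps MARS1.

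Chaperones and degradation factors of the endoplasmic reticulum rose in part. Of 28 tested 15 rose, 7 at least 2-fold, and 1 fell (median 0.35), 53.6% higher against 20.7% over all genes tested. DNAJB9, a co-chaperone that restrains the sensor IRE1, was at 9.65, 6.92 and 10.8 RPKM in NC and 34.5, 34.3 and 31 RPKM with 2-DG (log2 change 1.78 ± 0.15, adjusted p = 1.04e-04). HERPUD1, a scaffold of the degradation complex, was at 35.7, 38.4 and 41.7 RPKM in NC and 94.8, 89.97 and 89.6 RPKM with 2-DG (log2 change 1.23 ± 0.08, adjusted p = 2.91e-05). HSPA5, the main chaperone of the compartment, also called BiP, was at 73.4, 82.9 and 80.1 RPKM in NC and 124, 106 and 99.3 RPKM with 2-DG (log2 change 0.47 ± 0.09, adjusted p = 0.00529), a smaller change from a higher level. The member that fell was ERO1A, an oxidase of disulfide bond formation that hypoxia also induces, at 58.3, 49 and 52.1 RPKM in NC and 42.4, 36.1 and 37.1 RPKM with 2-DG (log2 change -0.45 ± 0.10, adjusted p = 0.00723), while its relative ERO1B rose from 4.39, 2.99 and 3.7 RPKM to 11.5, 11.1 and 10.1 RPKM. CCAAT, a part of the stress element of this compartment, was in 19 of 22 of these promoters, against 37.8% of all.

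Transport between the endoplasmic reticulum and the Golgi apparatus was among the lists with the highest share of rises. Of 67 genes tested 41 rose (61.2%, against 20.7% over all genes tested) and 2 fell, with a median log2 change of 0.36, and their share of counted reads went from 1.03% to 1.33%. The SNARE protein GOSR2 (chromosome 17, 46923160 to 46975890) was at 29.6, 32.6 and 31.7 RPKM in NC and 71, 76.5 and 71.4 RPKM with 2-DG (log2 change 1.2 ± 0.08, adjusted p = 2.90e-05). The coat regulator ARFGAP3 was at 19.7, 17.6 and 15.2 RPKM in NC and 40.4, 42.9 and 39.7 RPKM with 2-DG (log2 change 1.19 ± 0.11, adjusted p = 1.30e-04). SEC24D, a cargo adaptor of COPII vesicles, was at 25.1, 24.4 and 24.7 RPKM in NC and 38.1, 42.3 and 40.3 RPKM with 2-DG (log2 change 0.68 ± 0.08, adjusted p = 5.04e-04). Of the rises 4 were at least 2-fold, and the largest was in COPZ2, a subunit of the COPI coat, at 2.58, 1.53 and 1.43 RPKM in NC and 6.98, 8.49 and 4.13 RPKM with 2-DG (log2 change 1.38 ± 0.26, adjusted p = 0.00396). Its treated libraries varied among themselves but lay above every untreated one. The lower members were CREB3L1 and CREB3L2, membrane-bound transcription factors of the secretory route, with CREB3L1 at 4.18, 5.83 and 4.34 RPKM in NC and 0.544, 0.745 and 0.755 RPKM with 2-DG (log2 change -1.77) and under 1 RPKM in every treated library. With a library left out 36 to 43 were called higher.

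TGACGTGG, an element bound by XBP1, occurred in 6 of 44 promoters of this list and in 0.991% of all 7066. KDELR3, a receptor that returns escaped chaperones, has it on the opposite strand, shown in capitals as CCACGTCA.
KDELR3 (chr22:38467996-38468095, plus strand): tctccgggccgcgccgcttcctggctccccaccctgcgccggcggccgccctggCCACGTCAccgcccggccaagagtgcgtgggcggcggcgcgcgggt
KDELR3 was at 35.7, 23.5 and 28.2 RPKM in NC and 41.6, 48.2 and 43.9 RPKM with 2-DG (log2 change 0.61 ± 0.14, adjusted p = 0.0111). NC replicate 1 was the closest of the untreated libraries to the treated ones.

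Of 37 genes of the machinery that moves proteins into the endoplasmic reticulum 13 rose (35.1%, against 20.7% over all genes tested) and 1 fell (median 0.22). The count higher was 20 without 2-DG replicate 1 and 9 without 2-DG replicate 2 or 2-DG replicate 3. That of genes lower was 2 without 2-DG replicate 1, and 0 without 2-DG replicate 2, 2-DG replicate 3 or NC replicate 3. CAMLG, a receptor for tail-anchored proteins, was at 24.7, 16.8 and 17.7 RPKM in NC and 27.8, 37 and 35 RPKM with 2-DG (log2 change 0.74 ± 0.16, adjusted p = 0.00874). SEC11C, a subunit of the signal peptidase, was at 17.6, 19.2 and 24.5 RPKM in NC and 30.6, 37.1 and 34 RPKM with 2-DG (log2 change 0.71 ± 0.13, adjusted p = 0.00421). Both were higher in each treated library.

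Enzymes that make and attach sugar chains were higher at particular steps. Of 50 genes of N-glycosylation and of the mannose and hexosamine routes 18 rose and 5 fell (36.0% and 10.0%, against 20.7% and 18.8% over all genes tested, median 0.17). GFPT1, the first enzyme of the hexosamine route (chromosome 2, 69319780 to 69387227), was at 19.9, 19.9 and 19.3 RPKM in NC and 50.1, 53.9 and 52.1 RPKM with 2-DG (log2 change 1.36 ± 0.08, adjusted p = 1.90e-05). PGM3, a later step of that route, was at 12.6, 10.6 and 11.9 RPKM in NC and 23.1, 26.3 and 23.3 RPKM with 2-DG (log2 change 0.99 ± 0.11, adjusted p = 3.46e-04). PMM2, which makes mannose-1-phosphate, was at 29.4, 34 and 30.2 RPKM in NC and 49.7, 57 and 53.7 RPKM with 2-DG (log2 change 0.76 ± 0.09, adjusted p = 5.18e-04). Untreated and treated libraries were each nearly level in GFPT1. TUSC3, a subunit of the oligosaccharide transferase, was at 35.3, 23.1 and 30.3 RPKM in NC and 16.4, 14.6 and 13.4 RPKM with 2-DG (log2 change -0.94 ± 0.16, adjusted p = 0.00242). The count lower was 1 without 2-DG replicate 2, 2 without 2-DG replicate 3, 3 without NC replicate 1 and 1 without NC replicate 3.

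Glycolytic enzymes, the pathway that 2-DG blocks, were lower by small amounts. Of 22 tested 12 fell, none of them 2-fold, and none rose (median -0.25), 54.5% lower against 18.8% over all genes tested. The count lower was 6 without 2-DG replicate 2 and 5 without 2-DG replicate 3, and 1 rose without NC replicate 1. LDHA, the lactate-producing subunit of lactate dehydrogenase, was at 87.9, 89.2 and 80.8 RPKM in NC and 64.9, 68.2 and 69.3 RPKM with 2-DG (log2 change -0.34 ± 0.07, adjusted p = 0.00527). GPI, the isomerase that 2-DG phosphate inhibits, was at 55.6, 48.6 and 46.3 RPKM in NC and 33.8, 32.3 and 35.5 RPKM with 2-DG (log2 change -0.55 ± 0.09, adjusted p = 0.00238). PGK1, which makes ATP in the pathway, was at 109.9, 94.3 and 88.7 RPKM in NC and 75.2, 77.5 and 76.8 RPKM with 2-DG (log2 change -0.34 ± 0.08, adjusted p = 0.0139). The groups did not overlap in LDHA, GPI or PGK1, though the NC libraries of PGK1 spread widely. GAPDH, the glyceraldehyde phosphate dehydrogenase, lay at 147, 152 and 137 RPKM in NC and 132, 129 and 125 RPKM with 2-DG and did not pass the test (adjusted p = 0.0515). HK2, the hexokinase that phosphorylates 2-DG, lay at 22.7, 16.8 and 13.2 RPKM in NC and 18.5, 22.8 and 23.6 RPKM with 2-DG (adjusted p = 0.22), with overlapping groups. GAPDH passed with a pseudocount of 0.1 (adjusted p = 0.0462), a filter of 5 RPKM (0.0407), median-of-ratios scaling (0.0487), quantile normalization (0.00994), the 3 groups fitted together (0.0296) and without 2-DG replicate 1 (0.0433), and HK2 without NC replicate 1 (0.0381).

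TXNIP, an arrestin-like protein that limits glucose uptake and whose gene responds to glucose phosphates, went the other way, at 30.1, 16.7 and 12.2 RPKM in NC and 56.4, 61.7 and 63.7 RPKM with 2-DG (log2 change 1.67 ± 0.27, adjusted p = 0.00194). In the citrate cycle list 10 of 44 genes fell and 2 rose, a share lower (22.7%) near the 18.8% over all genes tested. The count lower was 6 without 2-DG replicate 3, and the count higher was 5 without NC replicate 1. SLC25A10, a carrier that exchanges dicarboxylates across the mitochondrial membrane, was at 45.6, 46.4 and 45.3 RPKM in NC and 21.4, 20.7 and 23.5 RPKM with 2-DG (log2 change -1.03 ± 0.08, adjusted p = 8.25e-05). IDH1, the cytosolic isocitrate dehydrogenase, was at 68.3, 63.7 and 65.3 RPKM in NC and 79.4, 87.2 and 83.8 RPKM with 2-DG (log2 change 0.34 ± 0.07, adjusted p = 0.00525). The first was lower and the second higher in all treated libraries.

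Genes of purine and pyrimidine metabolism, salvage included, leaned downwards. Of 35 genes 21 fell (60.0%, against 18.8% over all genes tested) and 1 rose (median -0.30). The count lower was 13 without 2-DG replicate 2, 12 without NC replicate 2 and 12 without NC replicate 3 and the count higher 2 without 2-DG replicate 1, while the median stayed between -0.33 and -0.28. DCK, which phosphorylates salvaged deoxynucleosides, was at 19.4, 17.7 and 18 RPKM in NC and 7.28, 9.47 and 9.61 RPKM with 2-DG (log2 change -0.99 ± 0.13, adjusted p = 7.82e-04). HPRT1, a purine salvage enzyme, was at 39.6, 42.3 and 36.3 RPKM in NC and 26, 30.8 and 28.6 RPKM with 2-DG (log2 change -0.46 ± 0.10, adjusted p = 0.00729). NT5E, the surface enzyme CD73 that releases adenosine and the member that rose, was at 3.89, 5.97 and 3.68 RPKM in NC and 8.84, 10.7 and 8.01 RPKM with 2-DG (log2 change 0.90 ± 0.19, adjusted p = 0.00661).

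Regulators of nutrient signalling changed in both directions. Of 59 genes around mTORC1, AMPK and insulin signalling 17 rose and 6 fell (28.8% and 10.2%, against 20.7% and 18.8% over all genes tested). The median was 0.17, and 0.255 without 2-DG replicate 1. The count higher was 11 without 2-DG replicate 2, 2-DG replicate 3 or NC replicate 3. SESN2, a leucine sensor that restrains mTORC1 and is a target of both p53 and ATF4, was at 15, 12.3 and 15.5 RPKM in NC and 47.5, 57.6 and 52.4 RPKM with 2-DG (log2 change 1.81 ± 0.12, adjusted p = 2.91e-05). RRAGC, a GTPase that brings mTORC1 to the lysosome, was at 12.7, 12.9 and 12.8 RPKM in NC and 24.2, 33.3 and 30.2 RPKM with 2-DG (log2 change 1.12 ± 0.13, adjusted p = 3.93e-04). FLCN, its activating partner, was at 17.3, 22.4 and 21.7 RPKM in NC and 42.6, 36.7 and 42.9 RPKM with 2-DG (log2 change 0.97 ± 0.12, adjusted p = 6.31e-04). These 3 genes rose in every treated library. The insulin receptor substrates went opposite ways, with IRS1 at 6.78, 8.06 and 6.09 RPKM in NC and 3.71, 4.13 and 4.4 RPKM with 2-DG (log2 change -0.64 ± 0.15, adjusted p = 0.00941). IRS2 was at 26.3, 29.7 and 23 RPKM in NC and 36.3, 37.6 and 39.9 RPKM with 2-DG (log2 change 0.52 ± 0.11, adjusted p = 0.0062). SESN3, the sestrin induced by FOXO factors, was at 4.3, 1.86 and 2.99 RPKM in NC and 0.632, 0.761 and 0.542 RPKM with 2-DG (log2 change -1.26), under 1 RPKM in every treated library. Of the other sestrins, SESN1 and SESN2 rose.

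Secreted ligands changed in both directions. Of 61 tested 24 rose, 14 at least 2-fold, and 20 fell, 6 at least 2-fold (39.3% and 32.8%, against 20.7% and 18.8% over all genes tested). The cytokine IL6 was at 2.07, 10.3 and 6.75 RPKM in NC and 33.3, 30.7 and 23.9 RPKM with 2-DG (log2 change 2.22 ± 0.41, adjusted p = 0.00393), with its lowest value in NC replicate 1. The chemokine CXCL2 was at 2.06, 4.57 and 3.48 RPKM in NC and 31.2, 21.6 and 21.4 RPKM with 2-DG (log2 change 2.58 ± 0.24, adjusted p = 1.44e-04). ADM2, a peptide of the calcitonin family, was at 2.98, 5.68 and 3.88 RPKM in NC and 31, 31 and 29.2 RPKM with 2-DG (log2 change 2.63 ± 0.18, adjusted p = 3.90e-05). Each was higher in all treated libraries than in any untreated one. Of the ligands of the EGF receptor, TGFA rose to 11, 13.2 and 10.8 RPKM from 3.33, 5.83 and 5.4 RPKM and AREG to 5.47, 7.84 and 5.51 RPKM from 2.07, 1.42 and 1.63 RPKM. Among those that fell, TGFB3, a TGF-beta ligand, was at 9.5, 9.31 and 13.6 RPKM in NC and 3.14, 2.45 and 3.17 RPKM with 2-DG (log2 change -1.58 ± 0.17, adjusted p = 3.66e-04). EDN1, endothelin-1, was at 17.8, 17.5 and 20.7 RPKM in NC and 8.86, 5.65 and 5.63 RPKM with 2-DG (log2 change -1.37 ± 0.17, adjusted p = 7.04e-04). BMP6, a BMP ligand, fell too, with a log2 change of -1.15. These ligands were picked as examples after their values were seen.

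Receptor tyrosine kinases leaned downwards, with 11 of 23 lower (47.8%, against 18.8% over all genes tested) and 2 higher. The median was -0.39, and -0.585 without 2-DG replicate 1 and -0.249 without 2-DG replicate 3. The count higher was 1 without 2-DG replicate 2, NC replicate 1 or NC replicate 3. FGFR4, the receptor that in liver reads bile acid signals through FGF19, was at 22.1, 25.4 and 29.3 RPKM in NC and 6.41, 4.34 and 5.41 RPKM with 2-DG (log2 change -2.06 ± 0.16, adjusted p = 6.59e-05). FGFR3 was at 32.5, 28.2 and 30.2 RPKM in NC and 14.4, 8.09 and 9.03 RPKM with 2-DG (log2 change -1.48 ± 0.19, adjusted p = 7.38e-04). MET, the receptor of hepatocyte growth factor, was at 62.6, 66.6 and 70.9 RPKM in NC and 39.4, 27.1 and 29.1 RPKM with 2-DG (log2 change -1.06 ± 0.13, adjusted p = 7.04e-04). 2-DG replicate 1 had the highest of the treated values in all 3 receptors, still under every untreated value. DDR2, a collagen receptor, rose (log2 change 0.75 ± 0.14, limma adjusted p = 0.00472). Of 43 cytokine and death receptors 12 rose and 7 fell (27.9% and 16.3%), near the 20.7% and 18.8% over all genes tested. The p53 targets EDA2R and FAS were among the rises, with log2 changes of 1.93 and 1.2. The count of those lower was 4 without 2-DG replicate 2, 3 without 2-DG replicate 3, 4 without NC replicate 1 and 3 without NC replicate 3.

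Genes of TGF-beta and BMP signalling fell in 16 of 31 cases (51.6%, against 18.8% over all genes tested) and rose in 3 (median -0.58). Those higher numbered 1 without 2-DG replicate 2, 0 without 2-DG replicate 3, 1 without NC replicate 2 and 1 without NC replicate 3. The ID proteins, inhibitors of differentiation factors and direct BMP targets, were lower together. ID1 was at 82.3, 73.3 and 70.9 RPKM in NC and 42.7, 38.9 and 44.7 RPKM with 2-DG (log2 change -0.83 ± 0.09, adjusted p = 2.85e-04). ID3 was at 74.1, 74.1 and 78.5 RPKM in NC and 35.3, 36.4 and 40.6 RPKM with 2-DG (log2 change -1.0 ± 0.08, adjusted p = 7.43e-05). ID2 was at 16.6, 13 and 19 RPKM in NC and 2.01, 4.82 and 5.23 RPKM with 2-DG (log2 change -1.83 ± 0.28, adjusted p = 0.00159). Untreated levels of ID1 and ID3 were even, and those of ID2 were lower and more variable. SMAD6, an inhibitory SMAD that BMP signals induce, was at 19.7, 26.3 and 24.8 RPKM in NC and 7.18, 4.98 and 6.49 RPKM with 2-DG (log2 change -1.77 ± 0.16, adjusted p = 1.30e-04). None of these genes had overlapping groups. In the Hippo list 7 of 31 fell and 4 rose, and the count higher was 1 without 2-DG replicate 2, 1 without 2-DG replicate 3 and 2 without NC replicate 3. In the Notch list 6 of 26 fell and 4 rose. The shares lower, 22.6% and 23.1%, were near the 18.8% over all genes tested. Members of the Notch list went both ways, with the ligand JAG1 higher (1.5 ± 0.17) and the glycosyltransferase LFNG lower (-2.19 ± 0.14).

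The zinc finger genes with ZNF symbols, mostly transcriptional repressors that bind DNA through arrays of zinc fingers, rose in a large number by small amounts. Of 384 tested 147 rose (38.3%) and 22 fell (5.73%), against 20.7% and 18.8% over all genes tested, with a median log2 change of 0.28, and 19 of the rises were at least 2-fold. Their share of counted reads went from 1.56% to 1.93%. Of the 170 ZNF genes on chromosome 19, where many lie in clusters, 79 rose (46.5%) and 7 fell, and of the 214 elsewhere 68 rose (31.8%) and 15 fell. The other 765 genes tested on chromosome 19 rose in 22.7% of cases and fell in 148, near the shares over all genes. ZNF841 (chromosome 19, 52058490 to 52095765) was at 12.3, 13.9 and 14.1 RPKM in NC and 34.2, 30.7 and 27.5 RPKM with 2-DG (log2 change 1.14 ± 0.11, adjusted p = 2.06e-04). ZNF70 was at 3.74, 2.81 and 3.49 RPKM in NC and 10.6, 10.8 and 12.6 RPKM with 2-DG (log2 change 1.5 ± 0.14, adjusted p = 1.70e-04). ZNF831 was at 15, 3.33 and 8.36 RPKM in NC and 0.60, 0.293 and 0.198 RPKM with 2-DG (log2 change -2.68), uneven in NC and under 1 RPKM in every treated library. Many ZNF genes are closely related copies, so single values are uncertain. With a library left out 106 to 155 rose, and under the scalings tried 139 to 158.

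**Figure D5:**
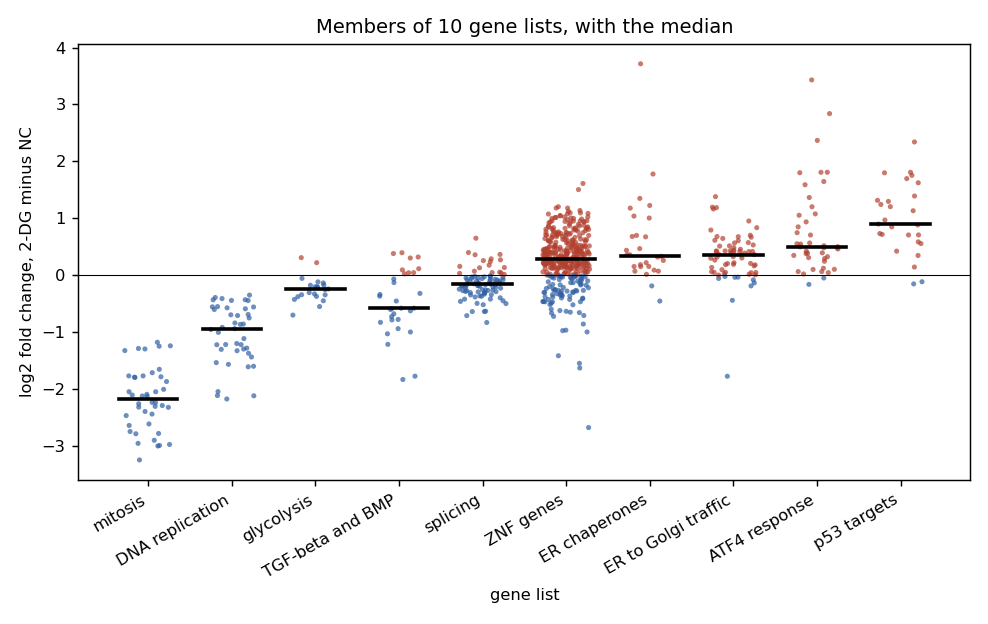
Log2 change with 2-DG (vertical axis) of each tested member of 10 gene lists, 1 point per gene, with the list median as a bar. All mitosis and DNA replication members lie below 0, and the 384 ZNF genes lie around a median of 0.28.

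Cytoskeleton and RNA processing genes leaned downwards by small amounts. Of 64 genes of tubulin, actin and their regulators 29 fell (45.3%, against 18.8% over all genes tested) and 4 rose (median -0.22), with 17 without 2-DG replicate 3, 16 without NC replicate 2 and 16 without NC replicate 3 in place of 29. STMN1, a microtubule destabiliser abundant in dividing cells, was at 50.4, 50.7 and 48.4 RPKM in NC and 19.2, 19.95 and 21.6 RPKM with 2-DG (log2 change -1.26 ± 0.08, adjusted p = 3.00e-05). TUBB4A, a beta-tubulin, was at 10.2, 5.21 and 4.93 RPKM in NC and 0.917, 1.07 and 1.02 RPKM with 2-DG (log2 change -1.89 ± 0.25). Of 91 splicing factors 27 fell (29.7%, against 18.8% over all genes tested) and 5 rose (median -0.15). The count lower was 14 without NC replicate 2 or NC replicate 3, and the count higher was 2 without 2-DG replicate 2, 1 without 2-DG replicate 3, 3 without NC replicate 1, 1 without NC replicate 2 and 2 without NC replicate 3. MBNL2 and MBNL3, related regulators of alternative splicing, went opposite ways, with log2 changes of 0.65 ± 0.13 and -0.83 ± 0.14.

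Leading members of the solute carrier, protocadherin, long noncoding RNA and hepatocyte marker lists changed strongly. SLC12A3, the thiazide-sensitive salt transporter of the kidney, was at 71.4, 69.8 and 77 RPKM in NC and 16.7, 8.49 and 9.28 RPKM with 2-DG (log2 change -2.62 ± 0.21, adjusted p = 8.49e-05). PCDH1, a protocadherin, was at 20.2, 9.74 and 11.5 RPKM in NC and 64.2, 50.5 and 52 RPKM with 2-DG (log2 change 1.99 ± 0.23, adjusted p = 4.81e-04). The noncoding RNA LINC02593 was at 128, 89 and 108 RPKM in NC and 48.5, 23.7 and 28.1 RPKM with 2-DG (log2 change -1.72 ± 0.24, adjusted p = 0.00112). SLC12A3 and LINC02593 fell, and PCDH1 rose, in all treated libraries. VTN, the plasma protein vitronectin, fell to 21.4, 9.94 and 13.7 RPKM from 69.2, 33.1 and 53.1 RPKM, a range that was wide in both groups. Of 216 solute carriers tested 63 rose and 38 fell, 29.2% and 17.6%, against 20.7% and 18.8% over all genes tested. The count of those lower was 21 without NC replicate 3.

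BRD9 and MYC did not pass the test. BRD9, a bromodomain subunit of a chromatin remodeller and the subject of the series title (chromosome 5, 863741 to 892801), lay at 52.3, 64.6 and 56.3 RPKM in NC and 58.1, 49 and 50.04 RPKM with 2-DG, with overlapping groups and a log2 change of -0.14 ± 0.10 (limma adjusted p = 0.321, 95% interval -0.37 to 0.10). MYC, a growth-promoting transcription factor, lay at 82.5, 95.6 and 78 RPKM in NC and 77.1, 61.4 and 79 RPKM with 2-DG, with a log2 change of -0.24 ± 0.11 (adjusted p = 0.136). The treated and untreated ranges overlapped in both genes.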

How the data were processed

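RNA-seq levels of 9 libraries were taken from a table of RPKM that the authors deposited. The submitters' processing notes name hg38 as the build and, over all assays, fastp 0.23.1, HISAT2 2.1.0, STAR 2.7.6a, Bowtie2 2.2.5, RSEM 1.2.8, HOMER 4.8.3 and MACS2 2.2.7.1. The notes do not say which of them made the RPKM, whether duplicates were taken out or how strand was handled. Values were whole multiples of 1 read in 100% of the 17808 genes (within 0.0001 reads), which gave the depths; RPKM values are deposited scaled by length and depth, so low genes move in steps.

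Genes that reached 1 RPKM in 3 or more of the 6 libraries were fitted as log2(RPKM + 1) with limma 3.58.1 (R 4.3.3, intensity trend, two-sided, no covariate). P-values were adjusted by Benjamini-Hochberg over 12671 genes. The lists and the members were chosen with earlier results of these data known, so they are described by counts and medians and not tested. Genes were named by rule: the 12 largest rises and falls, leading list members, a fixed set and abundant genes. The 12 largest were taken from called genes whose groups did not overlap and whose higher group averaged 10 RPKM or more. MicroRNA, LINC, LOC, clone and pseudogene symbols were left out of that ranking. Others were picked as examples of their list after their values were seen. The replicate number is no label of a shared culture, and p-values measure the spread between these libraries. Symbols matched RefSeq GRCh38.p14 directly for 12603 genes, through an older symbol for 58 and not for 10, and promoters come from RefSeq, for 7066 genes with 1 entry. The fit was also run on simulated data with the same spread set for every gene, so that run does not measure its accuracy on these libraries. Alternatives were other pseudocounts, filters, scalings, no trend, 3 groups, the replicate block, voom on recovered reads (whole reads) and each library left out. Figures were drawn with matplotlib 3.10.9.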

Additional observations from a re-analysis of the deposited data

How the results depend on the processing

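The count of 5009 genes differing lay between 4333 (filter of 5 RPKM) and 5579 (3 groups fitted together) over the other filters, pseudocount, scalings and fits, and voom on the 100% of values recovered as whole reads called 5306. Requiring a 2-fold change left 1070 genes, 416 higher and 654 lower. Under median-of-ratios scaling 2468 genes were higher and 2626 lower, against 2628 and 2381. With single libraries left out the count lay between 3439 and 5508, that of genes higher between 1689 and 3072 and that of genes lower between 1641 and 2436. Samples with the same replicate number did not deviate together (correlations -0.0278, 0.0446 and -0.0714, and 0 of 6 libraries matched their own number best), and with the number as a replicate block 4646 genes were called, 2429 higher and 2217 lower, of which 4435 were shared with the 5009; the block changed no call among the 129 genes named by rule. The median change of the Hippo list, -0.11, lay between -0.186 and 0.017 with single libraries left out and turned positive without NC replicate 2; the cause was not tested. Among these 129 genes 120 to 129 kept their direction and call under each alternative, the lowest number being with the filter of 5 RPKM, which left some untested, and SMAD4, AJUBA, NFIL3, TRAM2, SERPINB8, SERPINF1, MUC1 and SNAP25 lost their call under at least 1. At 1 read per 0.153 to 0.161 RPKM in a 1 kb gene, changes of genes near 1 RPKM rest on few reads.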
